A study of Mus musculus with 10 samples.

Results

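The genes described here are 50 mouse genes that act in mitosis, out of 48709 genes in the deposited tables, 21695 of them protein-coding. They were chosen by their function and matched by symbol, and all 50 were found in every table. By role they comprise 9 mitotic kinases, 5 cyclins and Cdk partners, 3 genes of the anaphase-promoting complex and securin, 6 kinesins, 7 spindle-associated proteins, 5 kinetochore and centromere proteins, 3 chromosomal passenger proteins that partner Aurkb, 4 condensin subunits, 2 proteins of chromosome structure and periphery, 4 cytokinesis proteins and 2 transcription factors. They were measured by RNA sequencing in 10 libraries of utricular supporting cells, which were sorted for the fluorescence of an Lfng-GFP reporter after culture of utricles from P21 mice. The utricle is a vestibular organ of the inner ear, and its supporting cells surround the sensory hair cells. TRULI is an inhibitor of the Lats kinases, which phosphorylate the transcriptional coactivator Yap and hold it out of the nucleus. By sample label, 3 libraries came from utricles cultured for 5 d in 0.1% DMSO (control) and 3 from utricles cultured for 5 d with 10 µM TRULI in 0.1% DMSO (TRULI). A further 2 libraries came from utricles kept for 5 d in 0.1% DMSO and then 5 d without treatment (control withdrawal), and 2 from utricles given 10 µM TRULI in 0.1% DMSO for 5 d and then 5 d without treatment (TRULI withdrawal). The sort selects cells by the activity of the Lfng reporter, so the libraries describe the reporter-positive cells alone. The study's methods describe the replicates of a condition as biological, the labels do not say which animals or cultures a library came from, and the p-values measure the spread between these libraries.

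Mitosis begins when the kinase Cdk1, bound to cyclin A or cyclin B, drives chromosome condensation and spindle assembly. Aurora and Polo-like kinases, kinesin motors and microtubule-binding proteins build the spindle, kinetochores attach the chromosomes to it, and the checkpoint kinases Bub1 and Ttk with Bub1b delay anaphase until all are attached. The anaphase-promoting complex, activated by Cdc20, then marks cyclin B and securin for destruction, and Prc1, Racgap1, Ect2 and Anln organize the division of the cell. Most of these genes are transcribed in G2 and mitosis, many through Foxm1 and Mybl2, and supporting cells of the mature mammalian utricle are largely quiescent.

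The 10 libraries held between 2463872 and 6255149 counts. For 4 of them the condition in the name under which the table was deposited differed from the sample label. The libraries labelled TRULI 1 and 2 carry the names of control withdrawal 1 and 2, those labelled control withdrawal 1 and 2 carry the names of TRULI 2 and 3, and the library labelled TRULI 3 carries the name of TRULI 1. The names of the other 5 libraries, control 1 to 3 and TRULI withdrawal 1 and 2, match their labels. Groups below follow the sample labels, and each comparison is also given with the groups of the deposited names. Which of them is right was not tested. The study reports cell-cycle genes as higher with TRULI, and as no longer different from controls after withdrawal. The mitochondrial ribosomal RNA gene mt-Rnr2 took 13.0% to 26.4% of the counts in the 6 libraries whose deposited name gives 5 d and 1.45% to 2.53% in the 4 whose name gives withdrawal. Summed over 10 markers, the supporting-cell level was 4919 to 14052 CPM in every library, and Lfng itself was between 21.2 and 100.1 CPM in those same 4 libraries and between 289.8 and 563 CPM in the other 6. Otog, at 2103 to 10307 CPM, was the largest part of that sum in most libraries, and Slc1a3 ranged from 534 to 3835 CPM. The sum therefore does not show that the markers were alike between libraries. A chi-square per degree of freedom over the genes measured how far any 2 libraries differed. It was 32.0 to 57.1 between the libraries labelled TRULI 1 and 2 and those labelled TRULI withdrawal. Against the 6 libraries whose deposited name gives 5 d, TRULI 1 and 2 gave 116 to 204. The libraries labelled control withdrawal gave 24.1 to 58.8 against control and 128 to 188 against TRULI withdrawal. CPM here denotes counts per 1000000 counts, scaled with TMM factors over all 10 libraries, and 3 counts correspond to 0.470 to 1.20 CPM depending on the library.

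Mitotic RNA was abundant in 3 of the 10 libraries. The summed level of the 50 genes was 144, 165 and 144 CPM in the libraries labelled control, 157, 242 and 553 in those labelled TRULI, 1768 and 1469 in those labelled control withdrawal and 225 and 232 in those labelled TRULI withdrawal. Ncapd2 alone gave 47.6, 38.1 and 38.4 CPM of these sums in the controls, and 99.2, 124 and 58.6 in the libraries labelled TRULI. It gave 78.7 and 78.4 CPM in control withdrawal and 57.2 and 146 in TRULI withdrawal. Ncapd2 was therefore most of the sum in the libraries labelled TRULI 1, TRULI 2 and TRULI withdrawal 2. The 3 highest sums thus belonged to the libraries labelled TRULI 3 and control withdrawal 1 and 2, the same 3 libraries that carry the deposited names TRULI 1, 2 and 3. All 50 genes had a count in each of these 3 libraries, whereas 33, 46 and 45 had one in the libraries labelled control, 31 and 22 in those labelled TRULI 1 and 2, and 35 and 28 in those labelled TRULI withdrawal. Among all 10 libraries, 32 of the genes were highest in control withdrawal 1 and 16 in control withdrawal 2. The exceptions were Pttg1, highest in the library labelled TRULI 2, and Ncapd2, highest in the library labelled TRULI withdrawal 2. In bulk libraries, fewer cells of a kind and less RNA per cell cannot be told apart.

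**Figure D1:**
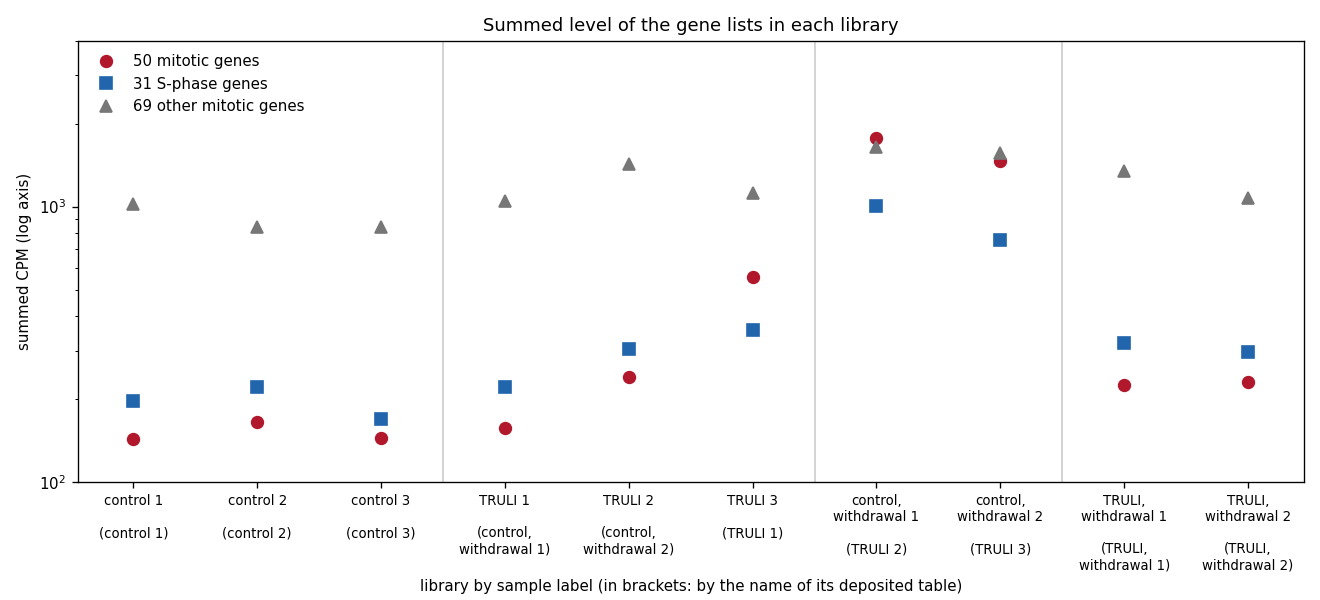
Summed level in CPM (log axis) of the 50 mitotic genes (circles), of 31 S-phase genes (squares) and of 69 other mitotic genes (triangles) in each of the 10 libraries, ordered by sample label with the deposited name in brackets; each point is 1 library. The circles of 7 libraries lie between 144 and 242, and those of TRULI 3, control withdrawal 1 and control withdrawal 2 (by label) lie at 553, 1768 and 1469.

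The sum of the mitotic genes also changed in relation to DNA replication. Divided by the sum of 31 S-phase genes, such as the Mcm helicase subunits, Pcna and Rrm2, it gave ratios of 0.727, 0.747 and 0.853 in the libraries labelled control, 0.706, 0.797 and 1.55 in those labelled TRULI, 1.76 and 1.95 in those labelled control withdrawal and 0.706 and 0.784 in those labelled TRULI withdrawal. The libraries with the highest sums of the 50 genes were therefore also those in which that sum exceeded the sum of the 31 S-phase genes. The lists differ in size, so which sum is larger depends on the genes listed. Ncapd2 was most of the mitotic sum in the libraries labelled TRULI 1, TRULI 2 and TRULI withdrawal 2. Ratios without it were not computed. The sum of 69 other mitotic genes exceeded that of the S-phase genes in every library.

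The first comparison asked how TRULI changed the supporting cells after 5 d. By sample label, none of the 50 genes passed the threshold in either direction, with an adjusted p below 0.05 and a log2 difference beyond 1 as the condition, against 0.00903% of all genes tested called higher and 0% called lower. Only 10 of the 50 were abundant enough to be tested, of which 3 were higher at an unadjusted p below 0.05, Ncapd2, Prc1 and Ect2, and none lower. Of all 11071 genes tested, 1515 had such a p in either direction. The median difference over all 50 was 0.79 on the scale of log2(mean CPM + 1), against 0.02 over all genes tested. Of the libraries labelled TRULI, number 3 was far above numbers 1 and 2 for most genes, and 5 of the 50, Cks2, Pttg1, Kif23, Ncapd2 and Prc1, did not overlap between the groups, all of them higher with TRULI, against 8.18% of all genes higher and 10.1% lower. Without the library labelled TRULI 3, 1 gene was called higher, Ncapd2, and 2 lower, Anln and Racgap1, against 10.7% and 8.11% of all genes tested. These are the libraries that the deposited names place in the comparison of control withdrawal with control. The mt-Rnr2 share was 1.99%, 2.53% and 18.4% in the libraries labelled TRULI, against 16.2% to 26.4% in the controls. Lfng was at 63.9, 21.2 and 310 CPM against 506 to 563 CPM. Myod1, a muscle marker, was at 34.1, 89.1 and 0.263 CPM against 0 to 0.400 CPM. The part of these differences in the result was not tested.

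Grouped by deposited name, the same question gave another answer. Of the 50 genes, 32 were higher with TRULI past the threshold and none lower, against 2.05% and 1.02% of all genes tested. The median over the 50 was 2.92, against 0.00 over all genes tested, and 44 of the 50 did not overlap between groups, all higher with TRULI, against 10.6% of all genes. A test was possible for 45 of them, and those with few counts in the controls passed the low-count filter through the TRULI libraries. Mki67 differed by 6.36 ± 0.76 (SE), adjusted p = 0.00263, Ckap2l by 5.78 ± 0.75 (SE), adjusted p = 0.00361, Ube2c by 5.37 ± 0.74 (SE), adjusted p = 0.00516 and Ccnb2 by 5.29 ± 0.65 (SE), adjusted p = 0.00275, all on the log2 scale. Cenpf and Dlgap5 had 2 counts each in the controls, and their ratios were 72.8 (95% counting interval 19.9 to 606) and 77.5 (95% counting interval 21.2 to 644). Every spindle-associated gene passed, 7 of 7, as did both transcription factors, whereas 1 of 4 condensin subunits did. The mt-Rnr2 share overlapped between these groups, at 16.2% to 26.4% in controls and 13.0% to 23.7% with TRULI, and summed hair-cell markers were 149.6 to 241 CPM against 172 to 759 CPM. The summed levels of 8 fibroblast markers did not overlap, at 19.2 to 39.2 CPM in controls and 41.9 to 117 CPM with TRULI, nor did those of 6 macrophage markers, at 0.992 to 1.60 against 4.47 to 7.62 CPM, most of it Cd68, while Ptprc, Csf1r, Aif1, Adgre1 and Tyrobp were at or below 0.525 CPM in these 6 libraries. The part of these markers in the result was not tested. The count fell to 9 without control 2, to 19 without control 3 and to 20 without the library deposited as TRULI 2.

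After withdrawal, the libraries labelled TRULI withdrawal were compared with those labelled control withdrawal. By label, 26 of the 50 genes, all of which were tested, were lower in TRULI withdrawal and none was higher, against 1.06% and 1% of all genes tested. The median difference over the 50 was -3.56, against 0.01 over all genes tested, and 48 of the 50 were lower without overlap, against 30.4% of all genes. Genes with few or no counts in the TRULI withdrawal libraries passed the low-count filter through the control withdrawal libraries. Mki67 had no count in either library labelled TRULI withdrawal and was at least 161-fold lower (adjusted p = 0.0312), the bound being set by a floor of 3 counts per library. Top2a, the topoisomerase that untangles sister chromatids, differed by -6.75 ± 0.77 (SE), adjusted p = 0.0312, on the log2 scale, Ccna2 by -5.56 ± 0.72 (SE), adjusted p = 0.0312, and Prc1 by -2.37 ± 0.36 (SE), adjusted p = 0.0353. Ncapd2 was the single gene with a positive difference, at 0.37 ± 0.48 (SE), adjusted p = 0.665. These groups also differed in the mt-Rnr2 share, 23.7% and 13.0% against 1.45% and 2.50%, and in Lfng, 548 and 290 CPM against 100.1 and 66.1 CPM. Myod1 was at 0 and 0 CPM against 14.4 and 48.2 CPM, while the other 4 muscle markers were at or below 1.12 CPM in every library. Treatment and these differences cannot be told apart. Without control withdrawal 1 a single gene, Mki67, was called, without control withdrawal 2 the 3 genes Mki67, Pbk and Top2a were, and with all 10 libraries in a joint fit none was, although 38 kept an unadjusted p below 0.05. The share of all genes with such a p in the joint fit was not counted. By deposited name, 0 of 16 tested genes passed in either direction, against 0% of all genes. None of the 16 had an unadjusted p below 0.05, against 532 of all 11568 genes tested in either direction. The median was then 0.23, with 8 of the 50 higher and 4 lower without overlap, against 14.8% and 14% of all genes.

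The control libraries were compared with each other to follow culture time without TRULI. By label, 40 of the 50 genes were higher in control withdrawal than in control, and none was lower, against 1.96% and 0.474% of all genes tested. All 50 had a positive difference, all 50 were higher and none lower without overlap, against 16.2% and 15.1% of all genes, and the median was 3.27 against 0.00 over all genes tested. Genes with few counts in the libraries labelled control passed the low-count filter through those labelled control withdrawal. Mki67 differed by 6.73 ± 0.60 (SE), adjusted p = 0.000355, Prc1 by 3.62 ± 0.26 (SE), adjusted p = 0.000126 and Ccnb2 by 5.69 ± 0.44 (SE), adjusted p = 0.000201 on the log2 scale. The 10 genes that did not pass were Aurka, Aurkb, Cdc25c, Pttg1, Cenpe, Birc5, Incenp, Smc2, Ncapg and Ncapd2. The mt-Rnr2 share overlapped between these groups, summed fibroblast markers were 19.2 to 39.2 CPM against 117 and 41.9 CPM and macrophage markers 0.992 to 1.60 CPM against 4.47 and 7.62 CPM, and their part in the result was not tested. In a joint fit of all 10 libraries 1 gene, Prc1, passed. By deposited name, 1 of 10 tested genes was higher, Ncapd2, and 2 were lower, Anln and Racgap1, against 10.7% and 8.11% of all genes tested, and 5 of the 50 were higher and 14 lower without overlap, against 26.5% and 28.1% of all genes.

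Withdrawn TRULI was compared with TRULI present. By label 0 of 26 tested genes passed in either direction, 2 of them, Kif22 and Tpx2, being lower at an unadjusted p below 0.05, and the median was -0.87 against -0.02 over all genes tested. Of all 12288 genes tested, 399 had an unadjusted p below 0.05 in either direction. Without overlap, 4 of the 50 were lower, Pttg1, Kif22, Tpx2 and Cenpe, and none higher, against 8.12% and 7.83% of all genes. By deposited name 34 of 50 were lower after withdrawal and none higher, against 5.85% and 8.04% of all genes tested, with a median of -3.18 against -0.03, and 43 of the 50 were lower and none higher without overlap, against 26.9% and 24.1% of all genes. Genes with few or no counts in the TRULI withdrawal libraries passed the low-count filter through the libraries deposited as TRULI. Tpx2 differed by -5.66 ± 0.74 (SE), adjusted p = 0.00954 and Cdk1 by -3.16 ± 0.72 (SE), adjusted p = 0.0277 on the log2 scale. The mt-Rnr2 share differed here as well, 13.0% to 23.7% against 1.45% and 2.50%, as did Lfng, 290 to 548 CPM against 100.1 and 66.1 CPM. Myod1 was at 0 to 0.263 CPM against 14.4 and 48.2 CPM. These differences cannot be told apart from withdrawal. Without the library deposited as TRULI 2 the count of lower genes was 1, Mki67, and without that deposited as TRULI 3 it was 12. The comparisons of this section share libraries: the comparison of the controls by label and that of TRULI at 5 d by deposited name have the 3 control libraries and 2 of the others in common, and the comparison after withdrawal by label shares all of its 4 libraries with that of withdrawn against present TRULI by deposited name, so their values are given side by side and are not independent of each other. A test of whether the TRULI difference itself changed from 5 d to withdrawal, over all 10 libraries, called none of the 50 by edgeR under either grouping, against 0% of all genes tested. An unadjusted p below 0.05 towards lower was found for 39 by label and 16 by deposited name, against 4.52% and 4.4% of all genes tested. DESeq2 called 8 of the 50 lower by label and 5 by deposited name (Kif22, Kif23, Mki67, Prc1 and Tpx2), against 0.265% and 0.327% of all genes.

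**Figure D2:**
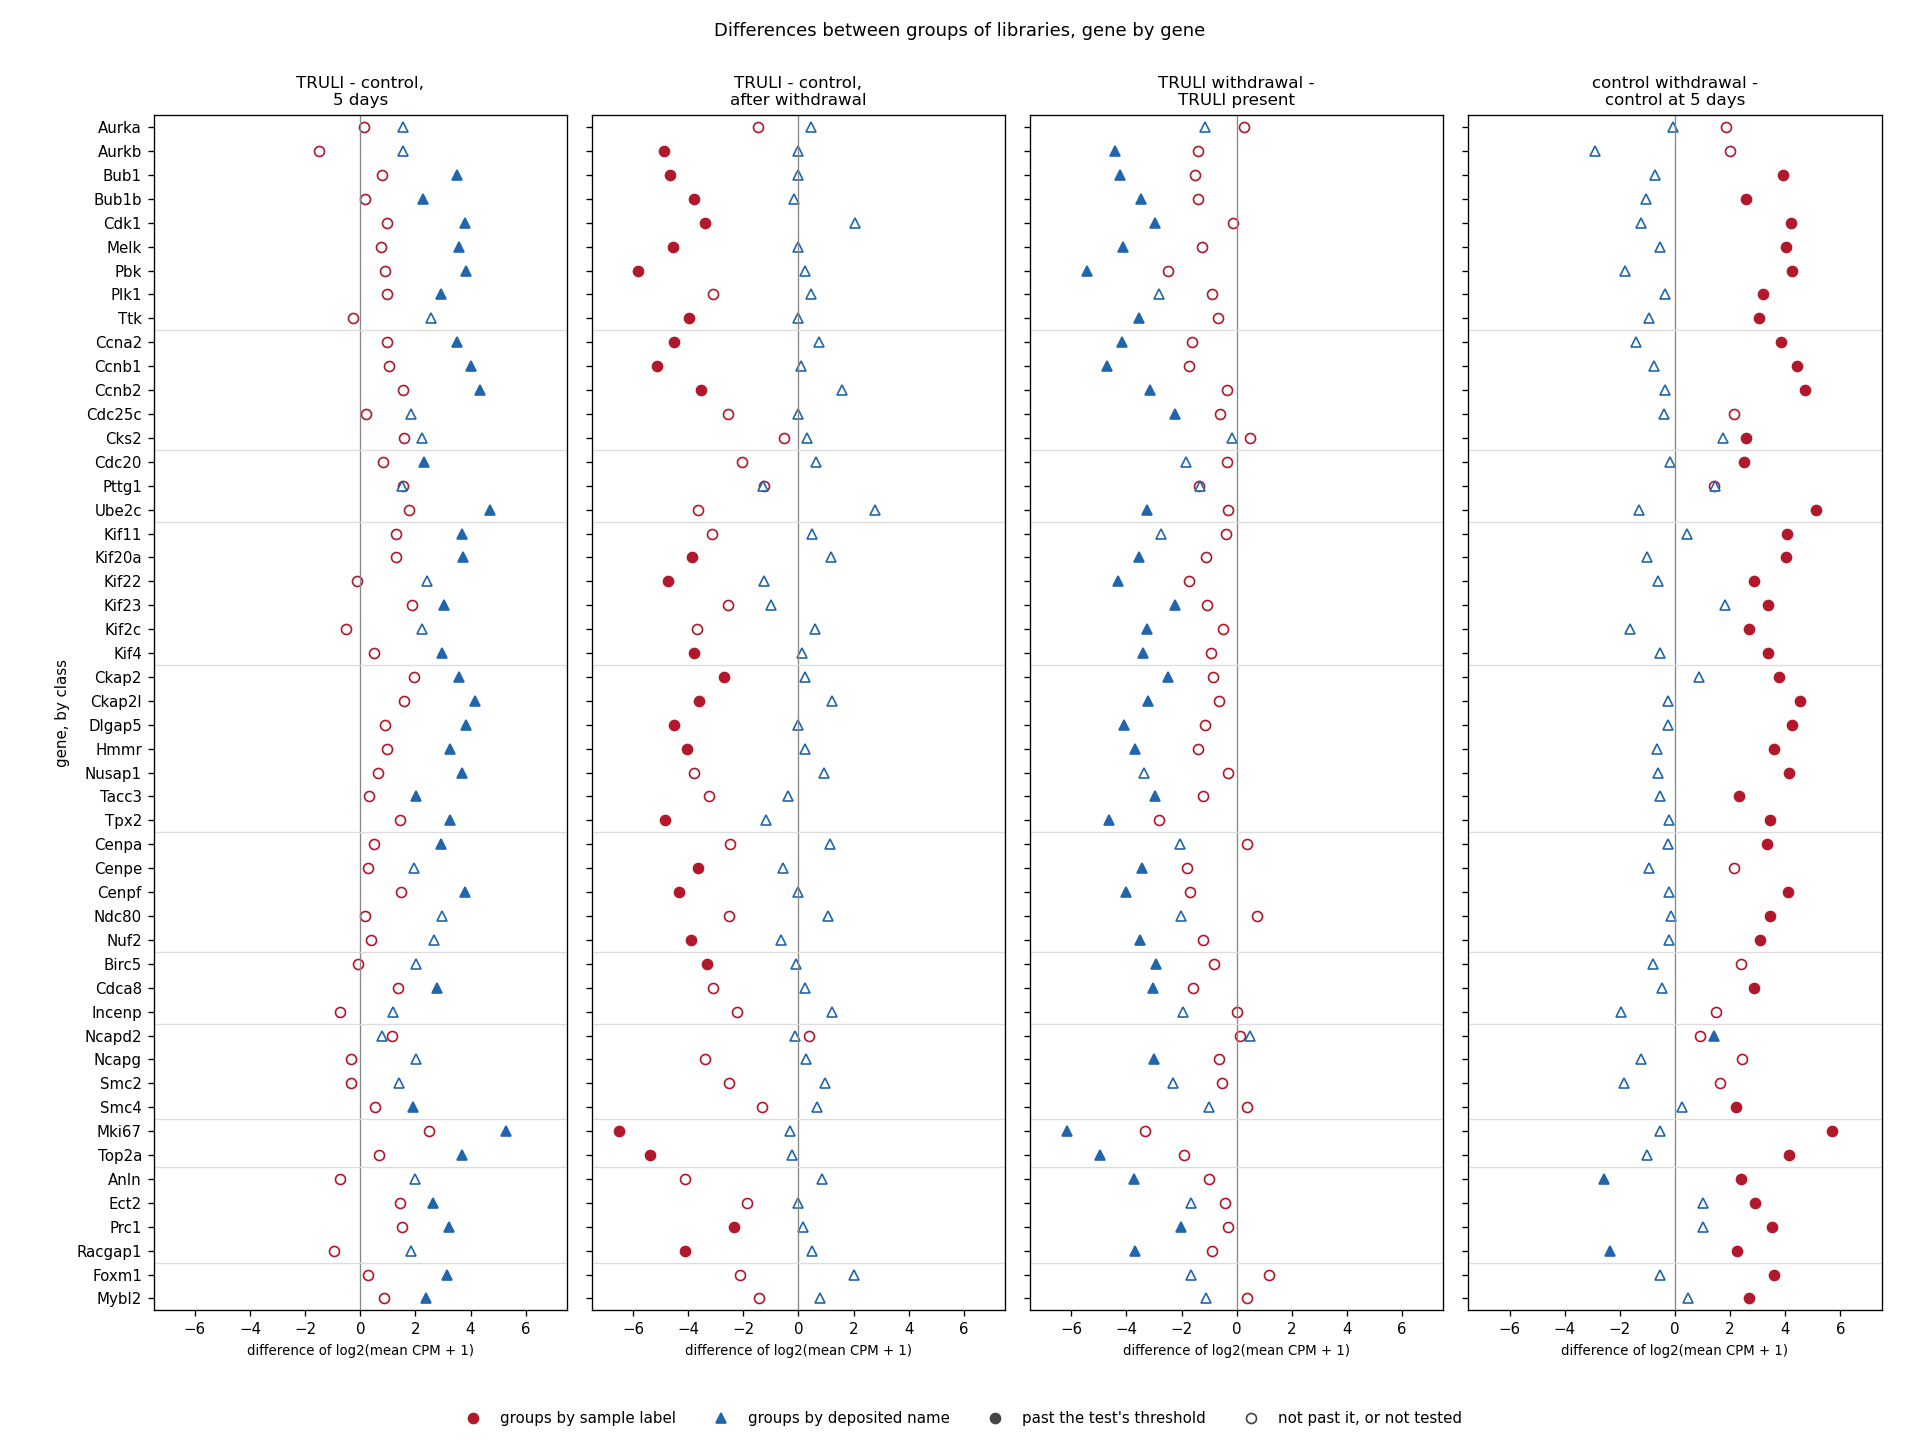
Difference of log2(mean CPM + 1) between groups of libraries for each of the 50 genes, ordered by class, in 4 comparisons. Circles use groups by sample label and triangles by deposited name, and filled symbols passed the edgeR threshold (adjusted p below 0.05 and log2 difference beyond 1). In the first panel the triangles lie to the right of 0 for all 50 genes and the circles for 40, and in the second the circles lie to the left for 49.

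Many promoters of this kind share sequence elements, and their letters are shown for 6 of the genes, from the kinases, cyclins, anaphase activators, chromosome and passenger classes. Of the 50 genes, 40 have a window from 250 bases before to 50 bases after the start site in RefSeq (GRCm38.p6), searched on both strands. The cell-cycle homology region (CHR; TTTGAA or TTCGAA) was found in 30 of the 40 windows, 75%, and in 19.4% of the windows of all 27025 genes. The CCAAT box (CCAAT) was likewise in 30 of 40, 75%, against 37.9% of all, and both motifs together were in 27 of 40, 67.5%, against 7.7% of all. An E2F core, spelled TTCCCGC, or as TTGGCGC, or as TTCGCGC, or as TTGCCGC, was in 20% against 9.69%, and a Tead core (GGAATG) in 7.5%, 3 of 40, against 14.6%. The motifs do not contain each other, and a match describes letters and not a bound site. Shown are the 250 bases before the start site, 5′ to 3′ on the strand of the gene, with CHR and CCAAT matches in capitals:
Ccnb2, chr9:70421555-70421804, minus strand: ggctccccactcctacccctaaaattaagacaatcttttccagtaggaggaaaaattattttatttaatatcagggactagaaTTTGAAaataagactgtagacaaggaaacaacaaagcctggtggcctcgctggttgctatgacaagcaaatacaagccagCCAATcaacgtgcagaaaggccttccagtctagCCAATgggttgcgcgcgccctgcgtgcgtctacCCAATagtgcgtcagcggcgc
Cdk1, chr10:69352913-69353162, minus strand: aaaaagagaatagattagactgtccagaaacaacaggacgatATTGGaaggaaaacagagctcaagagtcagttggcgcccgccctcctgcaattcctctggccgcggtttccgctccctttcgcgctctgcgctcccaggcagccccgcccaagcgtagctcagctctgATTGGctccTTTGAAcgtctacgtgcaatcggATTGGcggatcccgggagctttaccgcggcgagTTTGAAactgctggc
Plk1, chr7:122159185-122159434, plus strand: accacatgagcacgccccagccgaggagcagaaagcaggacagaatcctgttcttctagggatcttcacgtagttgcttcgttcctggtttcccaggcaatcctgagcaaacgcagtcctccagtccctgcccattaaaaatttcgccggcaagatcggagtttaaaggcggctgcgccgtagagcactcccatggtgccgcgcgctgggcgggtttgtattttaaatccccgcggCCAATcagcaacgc
Cdc20, chr4:118437344-118437593, minus strand: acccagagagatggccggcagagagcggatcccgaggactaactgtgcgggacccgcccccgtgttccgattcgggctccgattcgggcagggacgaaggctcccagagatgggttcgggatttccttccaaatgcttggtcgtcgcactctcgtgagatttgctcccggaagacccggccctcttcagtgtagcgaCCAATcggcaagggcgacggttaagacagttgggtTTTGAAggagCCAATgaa
Mki67, chr7:135716380-135716629, minus strand: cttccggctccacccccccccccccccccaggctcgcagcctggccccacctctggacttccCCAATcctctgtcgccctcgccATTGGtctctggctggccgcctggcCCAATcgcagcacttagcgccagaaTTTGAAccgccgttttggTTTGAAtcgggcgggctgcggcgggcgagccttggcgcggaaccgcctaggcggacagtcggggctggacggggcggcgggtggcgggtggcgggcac
Birc5, chr11:117848987-117849236, plus strand: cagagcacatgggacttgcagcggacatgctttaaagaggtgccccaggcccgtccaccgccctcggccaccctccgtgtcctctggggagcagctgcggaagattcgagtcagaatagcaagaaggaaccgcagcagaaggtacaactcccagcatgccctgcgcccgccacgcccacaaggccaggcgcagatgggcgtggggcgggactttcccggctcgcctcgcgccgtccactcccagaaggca
In Cdc20 a CHR begins 18 bases before the start site and CCAAT boxes 53 and 8 bases before it. Ccnb2 carries 3 CCAAT boxes, 87, 54 and 21 bases before its start, and a further CHR 4 bases after it that is not shown. The CHR of Plk1 begins 30 bases after the start and is likewise not shown. The Birc5 window holds neither motif, and the 2 highest levels of its RNA were nevertheless in the libraries labelled control withdrawal, as for the other 5 genes.

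Most of the mitotic kinases differed in some of the comparisons. None of the 9 was tested at 5 d by label or between the controls by deposited name. After withdrawal by deposited name, 0 of 2 tested passed. The counts given next, and those of the classes below, share the 2 libraries labelled control withdrawal and are not independent. These 2 libraries carry the deposited names TRULI 2 and 3. The shares of all genes called in each comparison, and the results of the other grouping, are those given above. The limit given there holds for the classes too: genes with few or no counts in a group passed the low-count filter through the other group. By label, 7 of 9 were higher in control withdrawal than in control and 7 of 9 lower in TRULI withdrawal than in control withdrawal, and by deposited name 6 of 9 were higher with TRULI at 5 d. Cdk1 (ENSMUSG00000019942.12, chr10:69335146-69352938, GRCm38), the kinase that starts mitosis, stood at 0.400, 4.93 and 2.48 CPM in the libraries labelled control, 0, 1.08 and 17.3 in those labelled TRULI, 57.9 and 74.1 in those labelled control withdrawal and 7.65 and 3.25 in those labelled TRULI withdrawal. Its level in every library labelled control withdrawal was thus above every other library, and by label it differed by 4.62 ± 0.52 (SE), adjusted p = 0.000989 between the controls and by -3.58 ± 0.57 (SE), adjusted p = 0.0406 after withdrawal, both on the log2 scale. Plk1, the Polo-like kinase of centrosome maturation and spindle assembly, was at 0.400, 0.658 and 0.496 CPM (labelled control), 0, 0.359 and 5.51 (TRULI), 16.4 and 9.41 (control withdrawal) and 1.22 and 0 (TRULI withdrawal). Aurkb (ENSMUSG00000020897.12, chr11:69045647-69051664), the kinase of the chromosomal passenger complex, was at 18.0, 1.32 and 0 CPM (labelled control), 0, 0 and 4.99 (TRULI), 33.0 and 23.7 (control withdrawal) and 0 and 0 (TRULI withdrawal). Aurkb was detected at 18.0 CPM in control 1 but near or at 0 in the other 2 controls, so the group was widely spread, and the controls by label differed by 2.25 ± 1.01 (SE), adjusted p = 0.327. After withdrawal it was at least 50.2-fold lower by label (adjusted p = 0.0312). Aurka, the centrosomal Aurora kinase, was at 0.799, 1.64 and 3.47 CPM (labelled control), 2.19, 1.44 and 3.15 (TRULI), 10.7 and 8.96 (control withdrawal) and 5.39 and 0.407 (TRULI withdrawal). It passed in none of the 4 comparisons under either grouping.

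The spindle checkpoint genes Bub1, Bub1b and Ttk were highest in both libraries labelled control withdrawal. Bub1, which recruits checkpoint proteins to kinetochores, was at 0, 0.986 and 0.992 CPM (labelled control), 0, 0 and 5.51 (TRULI), 31.3 and 17.2 (control withdrawal) and 0 and 0 (TRULI withdrawal), without a count in either TRULI withdrawal library and at least 42.9-fold lower there than in control withdrawal (adjusted p = 0.0312). Bub1b, the checkpoint protein BubR1, was at 1.20, 1.97 and 1.49 CPM (labelled control), 0.470, 0 and 5.25 (TRULI), 17.6 and 11.2 (control withdrawal) and 0 and 0.203 (TRULI withdrawal). Ttk, also known as Mps1 and the kinase that starts checkpoint signalling, was at 0.400, 1.64 and 0.744 CPM (labelled control), 0, 0 and 1.84 (TRULI), 20.4 and 9.41 (control withdrawal) and 0 and 0 (TRULI withdrawal). All 3 were lower in TRULI withdrawal and higher in control withdrawal than in control, by 5.03 ± 0.67, 3.19 ± 0.56 and 3.95 ± 0.67 (SE) on the log2 scale in the latter comparison. Pbk, a mitotic MAPKK-like kinase, was at 0, 5.92 and 1.74 CPM (labelled control), 0, 0 and 17.1 (TRULI), 81.5 and 50.2 (control withdrawal) and 0.348 and 0 (TRULI withdrawal). Melk, a kinase of dividing and progenitor cells, was at 0, 0.329 and 0.992 CPM (labelled control), 0, 0 and 4.20 (TRULI), 30.3 and 14.3 (control withdrawal) and 0 and 0 (TRULI withdrawal). The ratio of the summed counts of Pbk between TRULI withdrawal and control withdrawal was 0.00288 (95% counting interval 0.000348 to 0.0105), while Melk was at least 39.5-fold lower.

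Among the cyclins and Cdk partners, 4 of 5 were higher in control withdrawal than in control and 3 of 5 lower in TRULI withdrawal, by label, and 3 of 5 were higher with TRULI at 5 d by deposited name. Ccnb1 (ENSMUSG00000041431.16, chr13:100778650-100786570), cyclin B1, was at 0.400, 0.658 and 1.98 CPM (labelled control), 0, 0.359 and 9.19 (TRULI), 45.0 and 40.5 (control withdrawal) and 0.521 and 0 (TRULI withdrawal). Ccnb2, cyclin B2, was at 0.400, 1.32 and 0.992 CPM (labelled control), 0.939, 0 and 12.9 (TRULI), 47.9 and 50.6 (control withdrawal) and 3.65 and 3.05 (TRULI withdrawal). Ccna2, cyclin A2, which acts in S phase and at mitotic entry, was at 0.400, 2.30 and 2.98 CPM (labelled control), 0.157, 0 and 13.7 (TRULI), 44.5 and 36.5 (control withdrawal) and 1.22 and 0.407 (TRULI withdrawal). The 3 cyclins differed between the controls by 5.23 ± 0.50, 5.69 ± 0.44 and 4.32 ± 0.51 (SE) on the log2 scale, with adjusted p from 0.000201 to 0.00123, and the groups did not overlap. Cks2, a small subunit that binds Cdk1, was at 0.400, 0 and 0 CPM (labelled control), 1.57, 3.95 and 1.58 (TRULI), 4.47 and 6.94 (control withdrawal) and 1.91 and 5.49 (TRULI withdrawal). It did not pass after withdrawal, where TRULI withdrawal 2 lay between both control withdrawal libraries and the difference was -0.63 ± 0.88 (SE), adjusted p = 0.694 on the log2 scale. Against the controls at 5 d, with 1 count in all, the ratio of control withdrawal was 55.3 (95% counting interval 9.47 to 2227). Cdc25c, a phosphatase that activates Cdk1, was at 0, 0.986 and 0 CPM (labelled control), 0, 0 and 1.58 (TRULI), 2.98 and 6.72 (control withdrawal) and 0 and 0 (TRULI withdrawal) and passed in neither comparison by label.

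Of the 3 anaphase genes, 2 were higher in control withdrawal than in control by label, and none passed after withdrawal. Cdc20 (ENSMUSG00000006398.15, chr4:118432901-118437352), the activator of the anaphase-promoting complex, was at 1.20, 0.658 and 0.496 CPM (labelled control), 0.783, 0.359 and 5.25 (TRULI), 7.95 and 10.3 (control withdrawal) and 1.91 and 1.02 (TRULI withdrawal). Ube2c, its ubiquitin-conjugating enzyme, was at 0, 2.63 and 1.74 CPM (labelled control), 0, 0 and 22.1 (TRULI), 58.9 and 110.4 (control withdrawal) and 9.73 and 1.83 (TRULI withdrawal). Both were higher in control withdrawal than in control by label, by 3.56 ± 0.70 (SE), adjusted p = 0.0223 and 5.76 ± 0.57 (SE), adjusted p = 0.000534 on the log2 scale. After withdrawal neither passed, at adjusted p = 0.123 and 0.0529, and by deposited name both were higher with TRULI at 5 d. Pttg1, the securin that holds separase inactive, was at 0.799, 0 and 1.24 CPM (labelled control), 1.88, 5.39 and 4.46 (TRULI), 2.98 and 4.03 (control withdrawal) and 0 and 1.83 (TRULI withdrawal). Its highest level was in the library labelled TRULI 2, and the difference between the controls was 2.27 ± 0.96 (SE), adjusted p = 0.294 on the log2 scale.

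**Figure D3:**
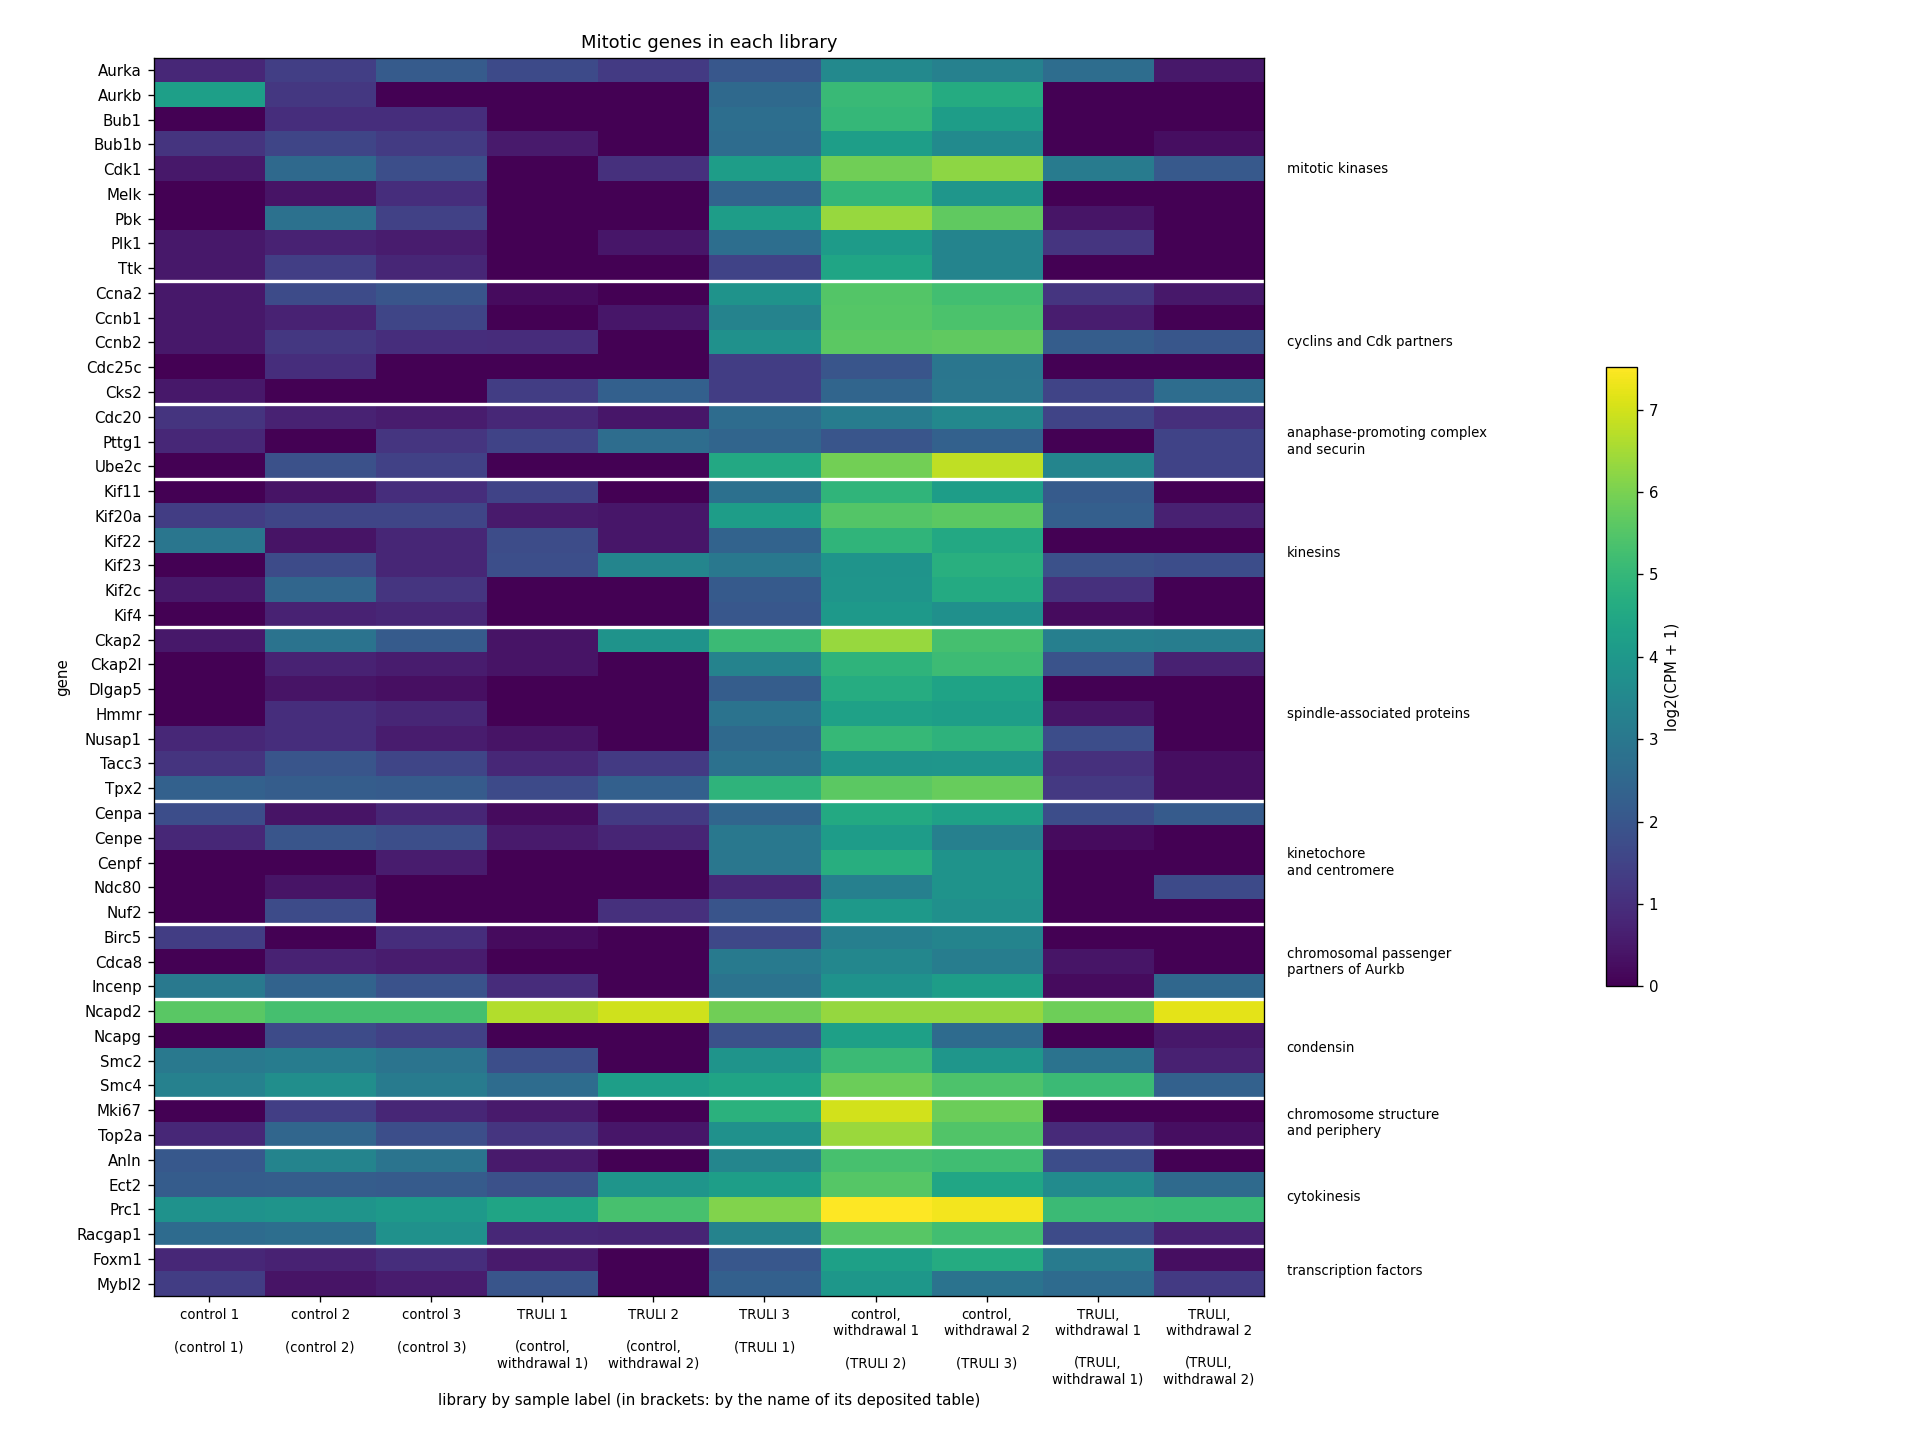
Level of each of the 50 genes (rows, by class) in each of the 10 libraries (columns, by sample label with the deposited name in brackets), as log2(CPM + 1). The columns labelled control withdrawal 1 and 2 hold the highest value of 48 genes, and the row of Ncapd2 is high in every column.

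All 6 kinesins were higher in control withdrawal than in control by label, and 3 of 6 were lower in TRULI withdrawal. Kif11 (ENSMUSG00000012443.3, chr19:37376403-37421859), the motor that pushes spindle poles apart, was at 0, 0.329 and 0.992 CPM (labelled control), 1.88, 0 and 5.78 (TRULI), 29.3 and 17.0 (control withdrawal) and 3.48 and 0 (TRULI withdrawal). Kif20a, a motor of the spindle midzone, was at 1.60, 1.97 and 1.98 CPM (labelled control), 0.470, 0.359 and 17.1 (TRULI), 44.0 and 47.9 (control withdrawal) and 3.82 and 0.610 (TRULI withdrawal). Kif23, the kinesin that joins Racgap1 in centralspindlin, was at 0, 2.30 and 0.744 CPM (labelled control), 2.50, 9.70 and 7.09 (TRULI), 13.9 and 26.0 (control withdrawal) and 2.61 and 2.44 (TRULI withdrawal). For Kif20a no library in another group reached either control withdrawal library, while the Kif23 level in the library labelled TRULI 2, 9.70 CPM, was above that in TRULI 3. Kif20a differed by 4.61 ± 0.38 (SE), adjusted p = 0.000269 between the controls and by -4.32 ± 0.81 (SE), adjusted p = 0.0459 after withdrawal on the log2 scale. Kif22, a chromosome-bound motor, was at 6.79, 0.329 and 0.744 CPM (labelled control), 2.35, 0.359 and 4.20 (TRULI), 29.3 and 22.2 (control withdrawal) and 0 and 0 (TRULI withdrawal). Kif2c, which depolymerizes microtubules at kinetochores, was at 0.400, 4.60 and 1.24 CPM (labelled control), 0, 0 and 3.41 (TRULI), 14.2 and 23.3 (control withdrawal) and 1.04 and 0 (TRULI withdrawal). Kif4, a motor that acts with condensin and at the midzone, was at 0, 0.658 and 0.744 CPM (labelled control), 0, 0 and 3.15 (TRULI), 15.4 and 12.8 (control withdrawal) and 0.174 and 0 (TRULI withdrawal). Kif22 was at least 45.5-fold lower in TRULI withdrawal, with 6.79 CPM in control 1 and less in controls 2 and 3, and the ratio for Kif4 was 0.00669 (95% counting interval 0.000168 to 0.0380). By deposited name 4 of 6 kinesins were higher with TRULI at 5 d, Kif22 and Kif2c not passing at adjusted p = 0.129 and 0.115.

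Spindle-associated proteins moved as a class between the controls by label, 7 of 7 being higher in control withdrawal, and 5 of 7 were lower in TRULI withdrawal. Tpx2 (ENSMUSG00000027469.16, chr2:152847964-152895321), the activator of Aurka on spindle microtubules, was at 3.996, 3.62 and 3.47 CPM (labelled control), 2.19, 3.95 and 28.9 (TRULI), 48.2 and 53.8 (control withdrawal) and 1.39 and 0.203 (TRULI withdrawal). It varied little among the controls, 3.47 to 3.996 CPM, and by deposited name differed by 3.58 ± 0.35 (SE), adjusted p = 0.00122 on the log2 scale at 5 d. Ckap2, a microtubule-binding protein, was at 0.400, 6.25 and 3.47 CPM (labelled control), 0.313, 13.6 and 34.1 (TRULI), 80.7 and 38.3 (control withdrawal) and 8.52 and 8.14 (TRULI withdrawal). Ckap2l, its homologue, was at 0, 0.658 and 0.496 CPM (labelled control), 0.313, 0 and 9.19 (TRULI), 28.6 and 34.5 (control withdrawal) and 2.78 and 0.610 (TRULI withdrawal). Nusap1, which bundles spindle microtubules, was at 0.799, 0.986 and 0.496 CPM (labelled control), 0.313, 0 and 4.99 (TRULI), 31.8 and 28.0 (control withdrawal) and 2.43 and 0 (TRULI withdrawal). Ckap2 was also present at 13.6 CPM in the library labelled TRULI 2, where Ckap2l and Nusap1 had no count. Hmmr, a spindle-pole protein that also binds hyaluronan, was at 0, 0.986 and 0.744 CPM (labelled control), 0, 0 and 6.30 (TRULI), 18.9 and 17.5 (control withdrawal) and 0.348 and 0 (TRULI withdrawal). Dlgap5, also called HURP and a stabilizer of kinetochore fibres, was at 0, 0.329 and 0.248 CPM (labelled control), 0, 0 and 3.68 (TRULI), 24.3 and 19.5 (control withdrawal) and 0 and 0 (TRULI withdrawal). Tacc3, part of a complex that cross-links microtubules, was at 1.20, 2.96 and 1.98 CPM (labelled control), 0.783, 1.44 and 6.04 (TRULI), 14.2 and 14.3 (control withdrawal) and 1.04 and 0.203 (TRULI withdrawal). Dlgap5, with 2 counts in the controls, gave a ratio of 104 (95% counting interval 28.5 to 868) between the controls and was at least 38.7-fold lower in TRULI withdrawal, whereas Tacc3 did not pass there at adjusted p = 0.0579.

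Of the kinetochore and centromere genes, 4 of 5 were higher in control withdrawal than in control and 3 of 5 lower in TRULI withdrawal, by label. Cenpa, the histone variant that marks centromeres, was at 2.40, 0.329 and 0.744 CPM (labelled control), 0.157, 1.44 and 4.46 (TRULI), 22.9 and 18.8 (control withdrawal) and 2.43 and 3.46 (TRULI withdrawal). Cenpe, a kinetochore motor, was at 0.799, 2.96 and 2.48 CPM (labelled control), 0.470, 0.718 and 7.09 (TRULI), 16.6 and 8.74 (control withdrawal) and 0.174 and 0 (TRULI withdrawal). Cenpf (ENSMUSG00000026605.14, chr1:189640606-189688086), a large protein of the outer kinetochore, was at 0, 0 and 0.496 CPM (labelled control), 0, 0 and 6.83 (TRULI), 25.1 and 13.4 (control withdrawal) and 0 and 0 (TRULI withdrawal). Cenpf had the lowest mean level per length of the 50 genes, 1.07 TPM (transcripts per 1000000, which corrects for length), and was at least 34.1-fold lower in TRULI withdrawal. The Cenpe difference of 2.56 ± 0.62 (SE), adjusted p = 0.0592 between the controls missed the threshold, while its ratio after withdrawal was 0.00751 (95% counting interval 0.000188 to 0.0427). Ndc80, the microtubule-binding subunit of the complex named after it, was at 0, 0.329 and 0 CPM (labelled control), 0, 0 and 0.788 (TRULI), 8.69 and 13.4 (control withdrawal) and 0 and 2.24 (TRULI withdrawal). Nuf2, its partner subunit, was at 0, 2.30 and 0 CPM (labelled control), 0, 1.08 and 2.89 (TRULI), 15.7 and 12.5 (control withdrawal) and 0 and 0 (TRULI withdrawal). Nuf2 was at least 24.9-fold lower in TRULI withdrawal, where Ndc80 was at 2.24 CPM in library 2 and did not pass at adjusted p = 0.177. The pooled ratio of Ndc80 between the controls, with 1 count in the group labelled control, was 107 (95% counting interval 18.8 to 4277).

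The partners of Aurkb in the chromosomal passenger complex did not exceed 17.0 CPM in any library. Birc5 (ENSMUSG00000017716.15, chr11:117849251-117855743), survivin, was at 1.60, 0 and 0.992 CPM (labelled control), 0.157, 0 and 2.10 (TRULI), 8.45 and 9.41 (control withdrawal) and 0 and 0 (TRULI withdrawal). Cdca8, borealin, was at 0, 0.658 and 0.496 CPM (labelled control), 0, 0 and 7.62 (TRULI), 10.2 and 8.06 (control withdrawal) and 0.348 and 0 (TRULI withdrawal). Incenp, the scaffold of the complex, was at 7.19, 4.27 and 2.73 CPM (labelled control), 0.939, 0 and 6.30 (TRULI), 13.2 and 17.0 (control withdrawal) and 0.174 and 4.68 (TRULI withdrawal). Cdca8 was the only one of the 3 that passed between the controls by label, at 4.38 ± 0.82 (SE), adjusted p = 0.0177, and Birc5 the only one after withdrawal, at least 15.8-fold lower (adjusted p = 0.0459). Incenp was present in all 3 controls at 2.73 to 7.19 CPM and in TRULI withdrawal 2 at 4.68 CPM, and it passed in none of the 4 comparisons under either grouping.

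Of condensin, the complex that compacts chromosomes, 1 of 4 subunits was higher in control withdrawal than in control by label. Ncapd2 (ENSMUSG00000038252.13, chr6:125168007-125191701), a subunit of condensin I, was at 47.6, 38.1 and 38.4 CPM (labelled control), 99.2, 124 and 58.6 (TRULI), 78.7 and 78.4 (control withdrawal) and 57.2 and 146 (TRULI withdrawal). Its mean of 132 TPM was the highest of the 50 genes, ahead of Prc1 at 83.0 TPM and Ube2c at 67.5 TPM, and the annotation places Scarna10 and Gm28967 in overlap with it on the same strand. The controls at 5 d were the lowest group, at 41.4 ± 5.36 CPM (SD, n = 3), and the 2 highest libraries were those labelled TRULI withdrawal 2 and TRULI 2. Smc2, an ATPase core subunit, was at 7.19, 7.89 and 6.45 CPM (labelled control), 2.50, 0 and 13.9 (TRULI), 34.0 and 14.6 (control withdrawal) and 6.26 and 0.610 (TRULI withdrawal). Smc4, its partner, was at 8.79, 12.2 and 7.69 CPM (labelled control), 5.32, 17.6 and 19.96 (TRULI), 55.4 and 41.9 (control withdrawal) and 33.7 and 4.07 (TRULI withdrawal). Ncapg, a condensin I subunit, was at 0, 2.30 and 1.74 CPM (labelled control), 0, 0 and 2.63 (TRULI), 18.1 and 5.15 (control withdrawal) and 0 and 0.407 (TRULI withdrawal). Smc4 alone passed between the controls by label, at 2.36 ± 0.33 (SE), adjusted p = 0.00393 on the log2 scale, and none of the 4 passed after withdrawal. By deposited name Smc4 was again the single subunit past the threshold at 5 d, at 2.06 ± 0.40 (SE), adjusted p = 0.0209, with Ncapd2 at 0.82 ± 0.23 (SE), adjusted p = 0.089.

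Mki67 and Top2a were near 0 in most libraries and high in a few. Mki67 (ENSMUSG00000031004.8, chr7:135689784-135716361), the coat protein of mitotic chromosomes and a standard marker of cycling cells, was at 0, 1.64 and 0.744 CPM in the libraries labelled control, 0.470, 0 and 26.8 in those labelled TRULI, 126 and 56.2 in those labelled control withdrawal and 0 and 0 in those labelled TRULI withdrawal. The 3 libraries deposited as TRULI thus held 26.8 to 126 CPM, every other library held at most 1.64 CPM, and the library labelled TRULI 3 was far below both control withdrawal libraries. Top2a (ENSMUSG00000020914.17, chr11:98992943-99024189) was at 0.799, 4.60 and 2.48 CPM (labelled control), 1.25, 0.359 and 12.9 (TRULI), 83.0 and 43.2 (control withdrawal) and 0.869 and 0.203 (TRULI withdrawal). Both were higher in control withdrawal than in control and lower in TRULI withdrawal by label, with differences between the controls of 6.73 ± 0.60 and 4.55 ± 0.51 (SE) on the log2 scale.

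Of the 4 cytokinesis genes, Prc1, Racgap1 and Ect2 had a count in all 10 libraries. Prc1 (ENSMUSG00000038943.16, chr7:80294450-80316259), which bundles midzone microtubules, was at 13.2, 13.8 and 15.4 CPM (labelled control), 20.03, 39.2 and 67.2 (TRULI), 182 and 165 (control withdrawal) and 33.7 and 33.2 (TRULI withdrawal). The controls agreed closely, at 14.1 ± 1.12 CPM (SD, n = 3), and all libraries of the other 3 groups lay above them. Racgap1, a subunit of centralspindlin, was at 5.20, 5.59 and 12.9 CPM (labelled control), 0.783, 0.718 and 9.19 (TRULI), 46.2 and 36.5 (control withdrawal) and 2.26 and 0.610 (TRULI withdrawal). Ect2, an exchange factor that acts at the cleavage furrow, was at 3.60, 3.62 and 3.47 CPM (labelled control), 2.66, 14.0 and 17.6 (TRULI), 45.0 and 20.6 (control withdrawal) and 11.3 and 5.09 (TRULI withdrawal). Anln, the actin-binding protein anillin, was at 3.20, 9.53 and 6.45 CPM (labelled control), 0.470, 0 and 9.98 (TRULI), 38.8 and 36.3 (control withdrawal) and 2.43 and 0 (TRULI withdrawal). All 4 were higher in control withdrawal than in control by label, and Prc1 and Racgap1 were lower in TRULI withdrawal. Anln and Racgap1 were lower in the libraries labelled TRULI 1 and 2 than in every control, whereas Ect2 in TRULI 2 was at 14.0 CPM against 3.47 to 3.62 CPM in the controls. By deposited name Prc1 and Ect2 were higher with TRULI at 5 d, at 3.31 ± 0.37 (SE), adjusted p = 0.0019 and 2.97 ± 0.45 (SE), adjusted p = 0.00765 on the log2 scale, while Racgap1 and Anln did not pass at adjusted p = 0.107 and 0.0568.

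The transcription factors of the late cell cycle did not exceed 23.5 CPM in any library. Foxm1 (ENSMUSG00000001517.14, chr6:128362967-128376146) was at 0.799, 0.658 and 0.992 CPM (labelled control), 0.470, 0 and 3.15 (TRULI), 18.4 and 23.5 (control withdrawal) and 7.82 and 0.203 (TRULI withdrawal). Mybl2, B-Myb, was at 1.60, 0.329 and 0.496 CPM (labelled control), 2.97, 0 and 3.94 (TRULI), 14.9 and 6.27 (control withdrawal) and 5.21 and 1.42 (TRULI withdrawal). Both were higher in control withdrawal than in control by label, at 4.62 ± 0.53 (SE), adjusted p = 0.00103 and 3.76 ± 0.78 (SE), adjusted p = 0.0286 on the log2 scale. Neither passed after withdrawal, and the library labelled TRULI withdrawal 1 held 7.82 CPM of Foxm1 against 0.203 CPM in TRULI withdrawal 2.

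**Figure D4:**
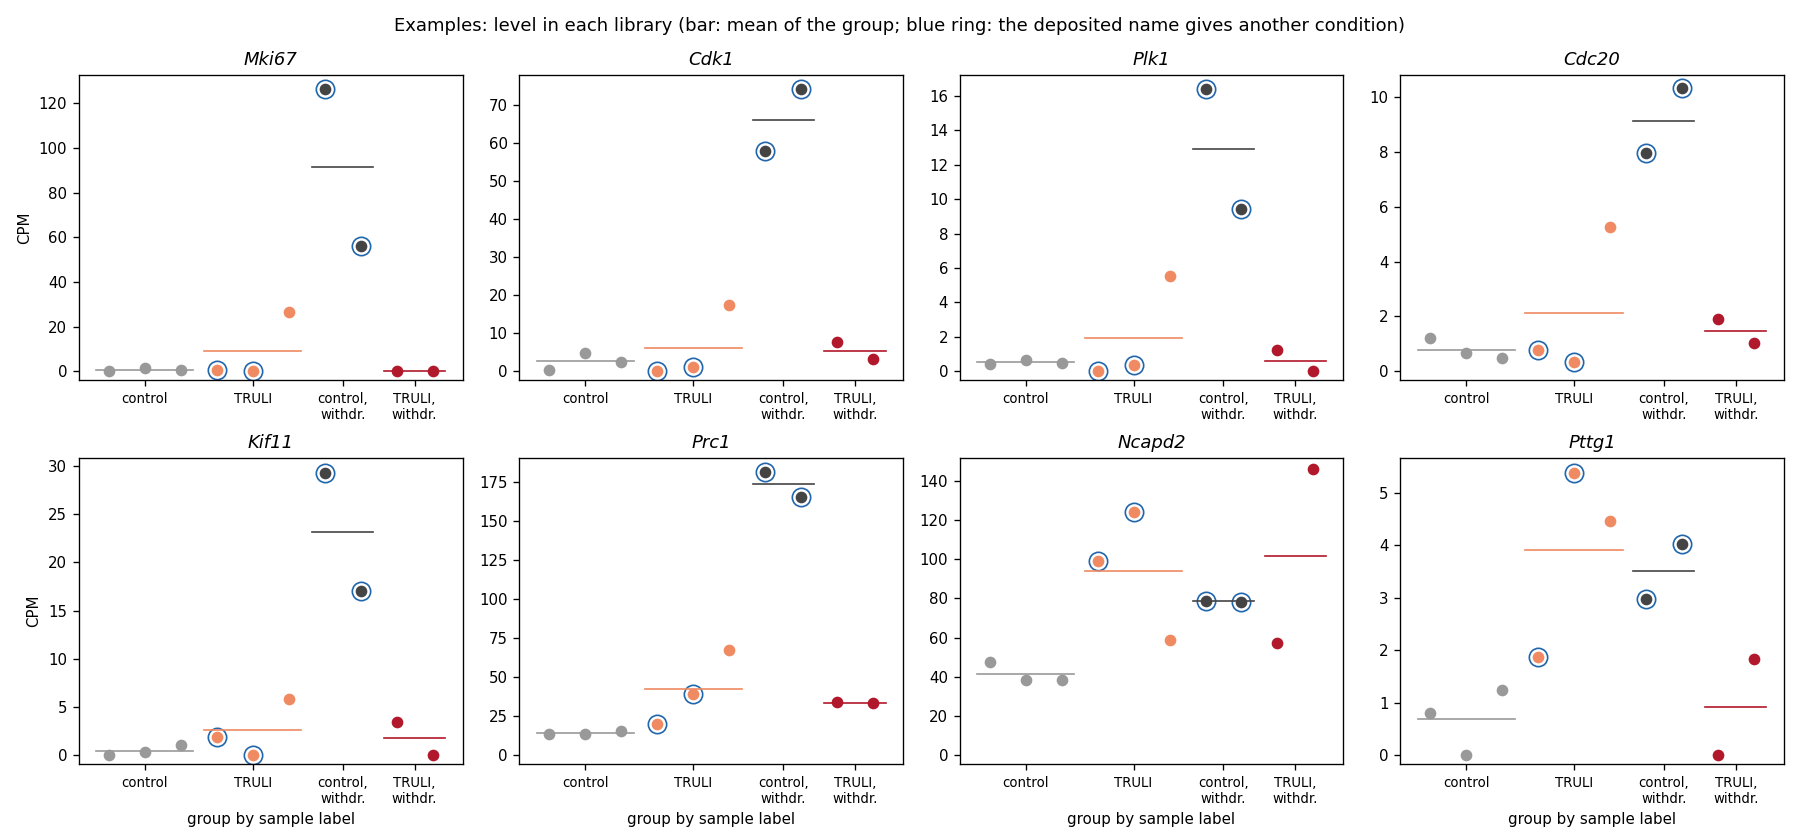
Level in CPM of 8 of the genes in each of the 10 libraries, grouped by sample label; bars give the mean of a group and blue rings mark the 4 libraries whose deposited name gives another condition. Mki67 lies at 126 and 56.2 in the libraries labelled control withdrawal and at 0 in both labelled TRULI withdrawal, whereas Ncapd2 and Pttg1 are highest in other libraries.

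Further genes of mitosis and of S phase, fixed as lists, were counted in the same fits. Of 69 other mitotic genes, which include kinetochore subunits such as Spc25 and Knl1, kinesins such as Kif15 and condensin subunits, 26 of 61 tested were higher in control withdrawal than in control by label and none lower, against 1.96% and 0.474% of all genes tested. After withdrawal 11 of 63 were lower and none higher by label, against 1.06% and 1%. At 5 d 0 of 23 passed by label, against 0.00903% higher and 0% lower, 2 being higher at an unadjusted p below 0.05, and 14 of 45 were higher by deposited name, against 2.05%. Of the 31 S-phase genes, read against the same shares, 17 of 29 were higher in control withdrawal, 5 of 30 lower in TRULI withdrawal and 13 of 28 higher with TRULI at 5 d by deposited name, and 0 of 20 passed at 5 d by label, with 6 higher at an unadjusted p below 0.05. In the 5 d fit by label, 1515 of all 11071 genes tested had an unadjusted p below 0.05 in either direction. The summed level of the other mitotic genes ranged from 843 to 1645 CPM, a much narrower range than the 144 to 1768 CPM of the 50 genes described here.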

How the data were processed

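Supporting cells were sorted for the Lfng-GFP reporter from cultured utricles of P21 mice, and polyadenylated RNA was sequenced in 10 libraries. The labels name an Illumina TruSeq kit and the study's methods a QIAseq FX kit. The authors aligned the reads with STAR to GRCm38 (mm10). The deposited tables hold expected counts per gene and an effective length, in the columns that RSEM writes. The counting program, annotation and strand setting are not given in the sources used here. Gene symbols and coordinates were taken from the GENCODE M21 annotation of GRCm38, in which 48349 of the 48709 gene identifiers were found. Of the 50 genes, 12 overlap another coding gene and 4 have a named pseudogene, so their counts may be shared.

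Expected counts were rounded to whole numbers and tested with edgeR 4.0.16 (R 4.3.3): filterByExpr, TMM factors, quasi-likelihood F tests on the libraries of the 2 groups compared, and Benjamini-Hochberg adjustment over all genes tested. A gene was called at an adjusted p below 0.05 and a log2 difference beyond 1, and SE is the difference divided by the square root of F. Genes without a count in a group were given a bound from 3 counts per library, averaged over the group, and genes with 1 to 3 counts a ratio of summed counts with an exact 95% binomial interval. Intervals and floors cover counting error only. TPM were computed from the expected counts and the effective lengths over the protein-coding genes. The 50 genes, their classes, the further lists and the rule for named genes (every gene given in every library) were chosen with earlier results of these data known. Depth was 2463872 to 6255149 counts, and no pair of libraries agreed within sampling noise. On simulated data, 169 of 200 genes changed 4-fold were recovered (84.5%), with 13 false calls among 11327 genes, for 3 against 3 libraries. For 2 against 2, 101 of 200 were (50.5%), with 1 false call among 12314. The simulation used a dispersion of 0.1, which is the square of the biological coefficient of variation. In the fits by label that coefficient was 0.488 at 5 d and 0.464 after withdrawal. The libraries thus varied more than the simulated ones, and the shares recovered do not carry over to them. Alternatives were the deposited names, DESeq2 1.42.0, its size factors, no filter, all 10 libraries in a joint fit, protein-coding genes alone, a replicate block and leaving out each library. Same-numbered libraries at 5 d correlated in their deviations from the group means at -0.14, 0.05 and -0.18 by label, so the labelled numbers do not pair them. By deposited name they correlated at 0.35, 0.16 and 0.29, and libraries of unlike number at -0.26 to -0.0082. The main fits used no pairing under either grouping. Embryonic libraries were not used here.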

Additional observations from a re-analysis of the deposited data

Results flagged for a closer look

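Several genes did not overlap between TRULI and control in opposite directions, higher at 5 d and lower after withdrawal. By sample label these were Kif23, Prc1 and Pttg1, for which the change of the TRULI difference from 5 d to withdrawal was -5.55 (adjusted p = 0.638), -3.95 (adjusted p = 0.258) and -4.36 (adjusted p = 0.73) on the log2 scale by edgeR. By deposited name they were Cenpe at -4.63 (adjusted p = 0.412), Pttg1 at -4.35 (adjusted p = 0.497) and Tpx2 at -5.37 (adjusted p = 0.124). How many of all genes tested lacked overlap in both directions in this way was not counted. By label, 8.18% of all genes were higher without overlap at 5 d and 30.4% lower after withdrawal. By deposited name these shares were 10.6% and 14%. None of the 6 changes given above passed the test of the difference itself by edgeR on all 10 libraries. With DESeq2 and with edgeR without the low-count filter 3 of them were called, Kif23 (adjusted p = 0.0121 and 0.00752) and Prc1 (6.92e-05 and 1.45e-05) by label and Tpx2 (6.00e-05 and 2.10e-05) by deposited name. By edgeR, Tpx2 was also called without the library deposited as control withdrawal 1 (adjusted p = 0.0348) and without TRULI withdrawal 1 (adjusted p = 0.0413). In the other fits made, adjusted p ranged from 0.323 to 1 for Kif23, from 0.0844 to 1 for Prc1 and from 0.0651 to 0.501 for Tpx2. Groups had at most 3 libraries, so single libraries were not tested for standing apart from their group.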

How the results depend on the processing

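Counts are of the 50 genes. The shares of all genes called are given above for the main fits under both groupings, and with DESeq2 for the change of the TRULI difference. For most other fits they are not given. A larger count there can also reflect more calls among all genes, so it is not read as a result about these genes. TRULI against control at 5 d by label gave 0 higher and 0 lower, and 1 higher (Mki67) without the low-count filter. Leaving out each library gave 0 to 1 higher and 0 to 2 lower. By deposited name 32 were higher, and 9 to 40 when a library was left out. After withdrawal 26 were lower by label, against 40 with DESeq2, 43 without the filter, 0 with all 10 libraries in a joint fit, 0 by deposited name and 1 to 46 when a library was left out. TRULI withdrawn against TRULI present gave 0 lower by label, 1 (Mki67) without the filter and 34 by deposited name, and the latter ranged from 1 to 39 lower and 0 to 1 higher when a library was left out. Control withdrawal against control gave 40 higher by label, 1 (Prc1) in the joint fit, 29 to 41 when a library was left out, and 1 higher with 2 lower by deposited name. That last pair became 5 lower without the filter and 0 to 4 higher and 0 to 4 lower when a library was left out. The change of the TRULI difference gave 0 lower with edgeR under both groupings. DESeq2 gave 8 by label and 5 by deposited name, no filter gave 29 and 8, and leaving out a library gave 0 to 2 by deposited name. In the groupings by deposited name, log2 differences of genes called by label turned to the other sign after withdrawal for Cdk1 (3.59), Ccnb2 (2.59), Ckap2 (0.30) and Prc1 (0.19), and between the controls for Racgap1 (-3.35), Tpx2 (-0.30) and Anln (-4.29). The cause was not tested, beyond the libraries that each grouping compares. A fit with 1 library left in a group assumes that it varies like the other group.

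With the replicate block, the count after withdrawal by label was 40 in place of 26, and between the controls by deposited name 0 higher and 0 lower. The block moved no other count beyond 1.5 times. Deviations of the same-numbered libraries after withdrawal correlated at 0.19 by label, and with 2 pairs the numbers do not show a pairing.

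The levels of low genes rest on few counts: in 4 of the 10 libraries fewer than 20 of the 50 genes had over 3 counts, and differences of such genes were not detectable at this depth in comparisons that left them untested. Scaling to the protein-coding counts without TMM factors kept the 3 highest summed levels, at 750.3, 2467 and 1835. The deposited tables used here hold no TPM column, so that alternative was not run.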
